A study of Mus musculus with 30 samples.

Results

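The adult testis table of the study lists 165 piRNA clusters among its 55566 rows, and the RNA counted over these clusters is described here. A cluster was taken as any row whose identifier starts with mmu-clu. The table marks each such row as type piRNA and gives piRNAdb in place of a gene name. No position, strand or length comes with these rows, so the clusters are called by their identifiers and are not placed in the genome.

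The comparison is of 3 adult male mice homozygous for the Ythdc2 WLA allele (WLA/WLA) with 3 heterozygous mice (WLA/+), all labelled C57BL/6J. Within each genotype the labels give 2 ages, 20 and 24 weeks. Every animal carried at least 1 WLA allele, so no wild-type testis entered the comparison. What WLA stands for is not spelled out in the labels. YTHDC2, a helicase of the YTH family that binds RNA, is needed by mouse male germ cells to carry on into meiosis. The counts are of whole testis RNA, and the deposited columns carry the genotype and a number from 1 to 3, not the animal number, so an age cannot be put on a column. The library numbers below only name the columns. The other 24 libraries of the series come from juvenile knockout mice and controls, and their tables list no cluster.

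piRNAs are short RNAs that PIWI proteins bind in germ cells, where they guide the silencing of transposons and the cleavage of other RNAs. They are cut from long single-stranded precursors that are transcribed by RNA polymerase II from genomic clusters. In mouse testis the most abundant clusters are switched on in pachytene spermatocytes by the transcription factor A-MYB, encoded by Mybl1, and their precursors are processed in germ granules and at mitochondria. The libraries were prepared with a TruSeq RNA kit and not from size-selected small RNA as far as the labels say, so a cluster count is of reads from precursors or from other transcripts that cross the cluster, and not of piRNAs. In bulk testis, fewer cells of a type and less RNA per cell cannot be told apart.

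Counted reads ran from 33331987 to 40129676 in the homozygous libraries and from 36161501 to 43707798 in the heterozygous libraries. The table holds raw counts. Levels in CPM (counts per 1000000 counted reads) use library sizes scaled with TMM, and fold changes are homozygous over heterozygous. Ythdc2 itself, on chromosome 18 from 44827730 to 44889720 (GRCm38.p6, the assembly of mm10), had 35.8, 32.8 and 33.6 CPM in homozygous testes, against 34.2, 35.7 and 29.9 CPM in heterozygous testes. These levels overlapped (log2 fold change 0.03 ± 0.07 SE, edgeR adjusted p 0.883), and a transcript count over the whole gene does not show which allele was present.

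Of the 165 clusters, 111 had at least 1 read in some library and 54 were listed at 0 in all 6 libraries. A count of 0 in a library allows at most 3 reads, or 0.0686 to 0.0900 CPM on unscaled library totals. These limits cover counting error only, and the reads carry no molecular identifiers. The zeros were not spread evenly over the names. The table holds 12 pairs of rows whose number is followed by m or p, such as mmu-clu-40m and mmu-clu-40p, and all 24 of these rows were listed at 0. Of the 141 rows without such a letter, 30 were at 0. All told, 32.7% of cluster rows were at 0, against 28.3% of the 55401 other rows. The table does not say what the letters mean, and neither the counting program nor its strand setting is stated. What the zeros go together with in the counting was not tested, and a row at 0 here is not a cluster shown to be silent.

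Most clusters with reads were sampled well. The median over the 111 clusters was 18.5 CPM as a mean of the 6 libraries, with quartiles of 3.33 and 37.8 CPM. There were 98 clusters at 1 CPM or more, 67 at 10 or more, 16 at 50 or more and 7 at 100 or more. Since no cluster length is known, these are numbers of reads per row, and their order is not an order of transcript abundance.

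All cluster rows together took up 0.331%, 0.325% and 0.329% of counted reads in the homozygous libraries, against 0.299%, 0.330% and 0.306% in the heterozygous libraries. The 3 homozygous shares lay close together, and heterozygous library 2 lay among them while heterozygous libraries 1 and 3 lay below. The means were 0.328% ± 0.00328 in homozygous and 0.312% ± 0.0163 in heterozygous testes (SD, n = 3 each), a ratio of 1.05, and the groups overlapped. The ratio stayed between 1.03 and 1.08 with any 1 library left out.

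**Figure D1:**
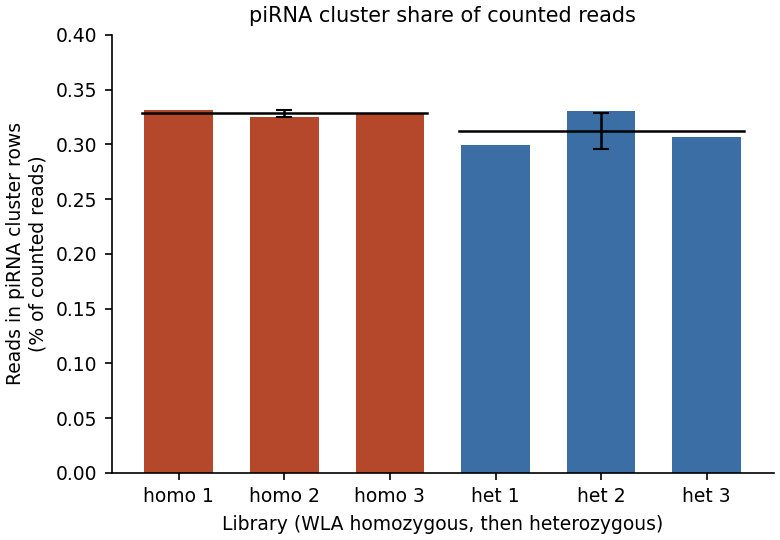
Share of all counted reads that fell in piRNA cluster rows, in percent, for each library of WLA homozygous (left) and heterozygous (right) testis. Horizontal lines are group means and error bars SD (n = 3 each). The homozygous libraries lie between 0.325% and 0.331%, and the heterozygous ones between 0.299% and 0.330%.

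The 10 clusters with the most reads were mmu-clu-106, mmu-clu-51, mmu-clu-179, mmu-clu-31, mmu-clu-42, mmu-clu-10, mmu-clu-92, mmu-clu-98, mmu-clu-161 and mmu-clu-34. Together they held 39.4% ± 0.159 of cluster reads in homozygous and 38.9% ± 0.760 in heterozygous testes (SD, n = 3 each). The first of them, mmu-clu-106, had 191, 188 and 180 CPM in homozygous libraries, against 172, 182 and 170 CPM in heterozygous libraries. The second, mmu-clu-51, had 163, 169 and 173 CPM in homozygous libraries, against 168, 182 and 175 CPM in heterozygous libraries. Both rows were steady across the 6 animals, with overlapping groups and log2 fold changes of 0.09 and -0.06. None of the 10 passed an adjusted p of 0.05, the smallest being 0.195 (edgeR quasi-likelihood test, Benjamini-Hochberg adjustment over all features).

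Among these most-read rows, mmu-clu-92 and mmu-clu-10 were uneven. mmu-clu-92 had 139.01, 121 and 109 CPM in homozygous libraries, against 114, 64.1 and 66.4 CPM in heterozygous libraries. Heterozygous library 1 thus lay among the homozygous libraries, and the other two heterozygous libraries were well below all of them. Its log2 fold change was the highest of the clusters tested, 0.60 ± 0.17 SE, with an edgeR adjusted p of 0.195. Without heterozygous library 1 the log2 fold change of mmu-clu-92 was 0.91 (edgeR adjusted p 1.44e-05), and without any other library its adjusted p lay between 0.348 and 0.602. mmu-clu-10 had 99.5, 97.5 and 120 CPM in homozygous libraries, against 79.0, 119 and 121 CPM in heterozygous libraries. Its group means were nearly equal (106 ± 12.7 and 106 ± 23.7 CPM, SD, n = 3 each) with a wide spread inside each genotype.

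The genotypes were compared on the 107 clusters that passed the filter on low counts; the other 4 clusters with reads had at most 13 reads in a library. A single cluster, mmu-clu-153, passed an adjusted p of 0.05 in edgeR, and it was lower in homozygous testis. Called clusters were thus 1 of 107, or 0.935%, against 0.236% of all 22446 features tested, of which 0.143% were lower and 0.0936% higher. mmu-clu-153 had 34, 27 and 31 reads (0.844, 0.813 and 0.801 CPM) in homozygous libraries, against 66, 98 and 72 reads (1.70, 2.21 and 2.005 CPM) in heterozygous libraries. The 3 homozygous levels lay within a narrow band, and each heterozygous level was more than double any of them.

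mmu-clu-153 fell to a mean of 0.820 ± 0.0222 CPM in homozygous testes, against 1.97 ± 0.257 CPM in heterozygous testes (SD, n = 3 each). The log2 fold change was -1.27 ± 0.18 SE, a level 0.415 times the heterozygous one (95% interval in log2 from -1.66 to -0.87, edgeR adjusted p 0.0205). It is one of the sparse clusters, 95th in number of reads, and its call rests on all the libraries but 1. With 1 library left out, the adjusted p was 0.000612 without heterozygous library 1 and between 0.0647 and 0.164 without any other, while the log2 fold change stayed between -1.37 and -1.17. The authors' deposited table gives it a log2 fold change of -1.27 and an adjusted p of 0.00211 (DESeq2).

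The next clusters by p were mmu-clu-81 and mmu-clu-138, both among the well-read rows. mmu-clu-81 had 64.1, 68.8 and 63.6 CPM in homozygous libraries, against 56.2, 55.9 and 50.5 CPM in heterozygous libraries. mmu-clu-138 had 42.2, 43.1 and 44.8 CPM in homozygous libraries, against 34.3, 37.6 and 37.5 CPM in heterozygous libraries. In both, every homozygous library lay above every heterozygous one.

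The log2 fold change of mmu-clu-81 was 0.27 ± 0.06 SE (edgeR adjusted p 0.0916) and that of mmu-clu-138 was 0.25 ± 0.06 SE (edgeR adjusted p 0.109). Both missed the threshold in edgeR. Run on the same features, DESeq2 called these 2 clusters and mmu-clu-153, with adjusted p of 0.0137 for mmu-clu-81 and 0.0469 for mmu-clu-138, while it called 0.971% of all features, 0.388% higher. DESeq2 gave no adjusted p to 6093 of these features, which count as not called. The authors' deposited table has the same 3 clusters past 0.05, with adjusted p of 0.0153 for mmu-clu-81 and 0.0448 for mmu-clu-138, where 1.14% of features with an adjusted p pass. mmu-clu-138 is named after its values were seen.

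**Figure D2:**
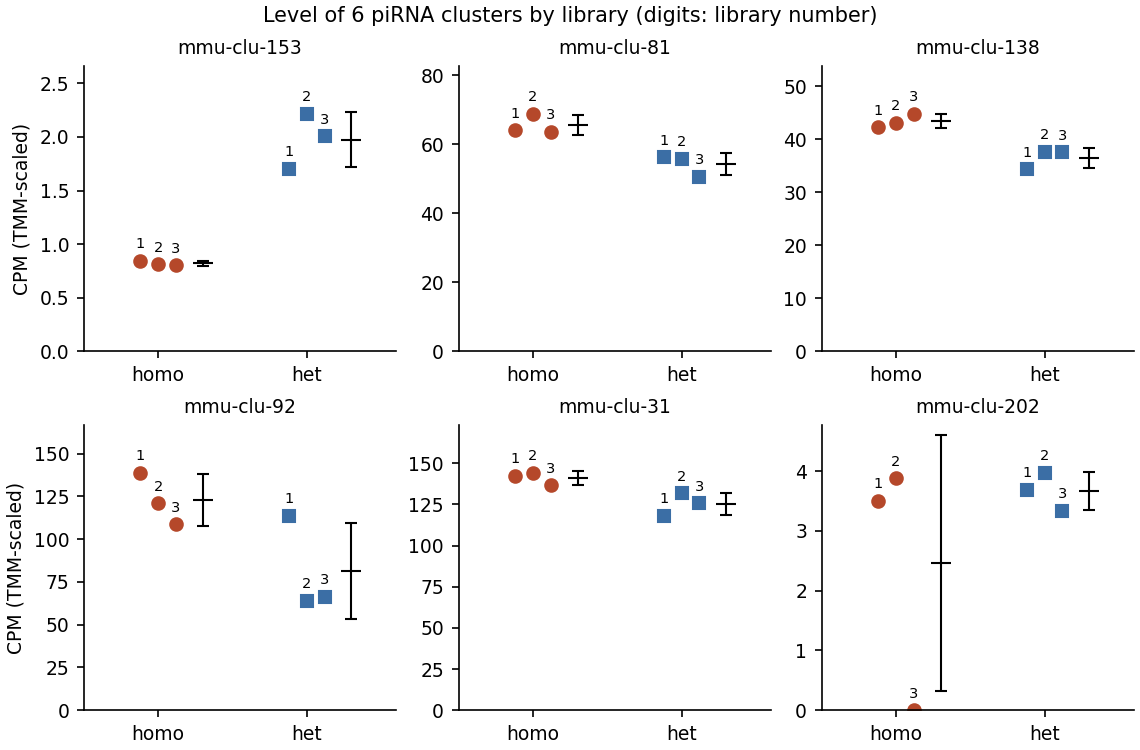
CPM of 6 piRNA clusters in each WLA homozygous (circles, left) and heterozygous (squares, right) library, with the library number over each point. Bars are means ± SD (n = 3 each). The genotypes do not overlap for mmu-clu-153, mmu-clu-81, mmu-clu-138 and mmu-clu-31. In mmu-clu-92 heterozygous library 1 lies with the homozygous libraries, and in mmu-clu-202 homozygous library 3 is at 0.

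At looser limits some counts lay near those of all features and others did not. At an adjusted p under 0.1 edgeR called 2 of 107 clusters, or 1.87%, against 0.708% of all features. At an unadjusted p under 0.05 there were 15 of 107 clusters, or 14%, against 13.2% of all features. Of these, 9 were higher (8.41%, against 5.85% of all features) and 6 lower (5.61%, against 7.32%). In 8 clusters, or 7.48%, every homozygous library lay above every heterozygous one, against 8.99% of all features. Besides mmu-clu-81 and mmu-clu-138 these were mmu-clu-1, mmu-clu-31, mmu-clu-34, mmu-clu-85, mmu-clu-142 and mmu-clu-171. In 5 clusters, or 4.67%, every homozygous library lay below, against 10.3% of all features, and these were mmu-clu-58, mmu-clu-112, mmu-clu-153, mmu-clu-161 and mmu-clu-203. These names were listed after their values were seen.

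Among the non-overlapping rows, mmu-clu-31 had 143, 144 and 137 CPM in homozygous libraries, against 118, 131.9 and 126 CPM in heterozygous libraries. mmu-clu-161 had 90.1, 93.5 and 90.7 CPM in homozygous libraries, against 98.2, 102 and 96.4 CPM in heterozygous libraries. These are small differences on well-read rows, with log2 fold changes of 0.17 ± 0.05 SE for mmu-clu-31 and -0.11 ± 0.05 SE for mmu-clu-161. Neither passed (edgeR adjusted p 0.202 and 0.328).

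As a whole the tested clusters moved little. Their median log2 fold change was 0.05, with quartiles of -0.06 and 0.13, beside a median of 0.01 and quartiles of -0.11 and 0.11 over all features tested. Of the 107 clusters, 61, or 57%, had a value above 0 and 46 one below, and 51.5% of all features had one above. The direction of the median depended on 1 library: it was -0.02 without heterozygous library 1, and between 0.03 and 0.10 without any other. The 95% interval of the log2 fold change lay within 0.5 either side of 0 for 80 of 107 clusters, or 74.8%, against 62.4% of all features. These were 52 of the 53 clusters with 20 CPM or more, all 22 of those from 5 to 20 CPM, and 6 of the 32 under 5 CPM. The median SE was 0.07, 0.10 and 0.20 in these bands, so that differences in the sparse clusters were the least detectable.

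**Figure D3:**
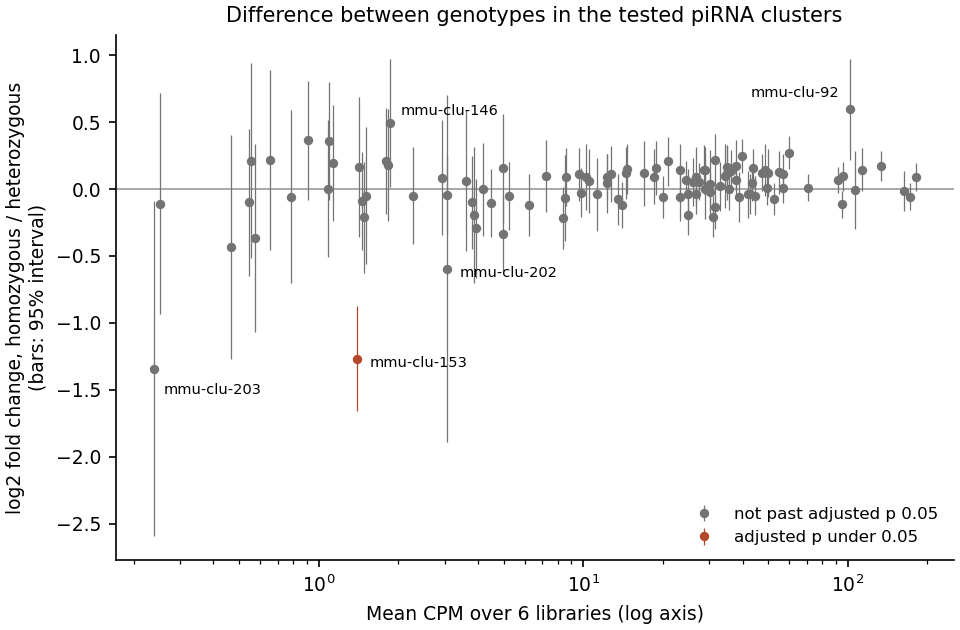
Fitted log2 fold change (homozygous over heterozygous) of the 107 tested clusters against their mean CPM over 6 libraries on a log axis, with 95% intervals. mmu-clu-153 at -1.27 passes an adjusted p of 0.05. Most clusters lie near 0, with intervals that widen at low CPM.

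The 5 lowest fitted values were those of mmu-clu-203, mmu-clu-153, mmu-clu-202, mmu-clu-61 and mmu-clu-197, and most of these rows are sparse. mmu-clu-203 had 10, 5 and 0 reads in homozygous libraries, against 15, 16 and 10 reads in heterozygous libraries (log2 fold change -1.34, edgeR adjusted p 0.349). mmu-clu-61 had 13, 12 and 20 reads in homozygous libraries, against 10, 36 and 19 in heterozygous libraries (log2 fold change -0.43, edgeR adjusted p 0.666). mmu-clu-197 had 18, 11 and 28 reads in homozygous libraries, against 19, 38 and 21 in heterozygous libraries (log2 fold change -0.36, edgeR adjusted p 0.666). The genotypes overlapped in mmu-clu-61 and mmu-clu-197. The fold changes of these sparse rows moved with 1 library left out. Without heterozygous library 2 the log2 fold change was 0.04 for mmu-clu-61 and -0.08 for mmu-clu-197. Without homozygous library 3 it was -0.74 for mmu-clu-203 and -0.72 for mmu-clu-197. Other libraries moved them too, from -0.76 to -0.28 for mmu-clu-61, to -0.15 for mmu-clu-197 without homozygous library 2, and to -2.24 for mmu-clu-203 without homozygous library 1.

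Among the largest values above 0, mmu-clu-146 had 77, 60 and 109 reads in homozygous libraries, against 47, 87 and 52 in heterozygous libraries (log2 fold change 0.49, edgeR adjusted p 0.367). That value was 0.27 without homozygous library 3 and 0.72 without heterozygous library 2. mmu-clu-1 had 36, 37 and 42 reads in homozygous libraries, against 27, 38 and 30 in heterozygous libraries (log2 fold change 0.36, edgeR adjusted p 0.473). mmu-clu-6 had 40, 46 and 51 reads in homozygous libraries, against 37, 47 and 30 in heterozygous libraries (log2 fold change 0.36, edgeR adjusted p 0.478). In raw reads the genotypes overlap in all 3 rows. After scaling by library size mmu-clu-1 does not overlap, with 0.894 to 1.11 CPM in homozygous and 0.697 to 0.859 CPM in heterozygous libraries.

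mmu-clu-202 was at 0 in a single library and well read in the other 5. It had 141, 129 and 0 reads in homozygous libraries, against 143, 176 and 120 reads in heterozygous libraries. In the 5 libraries with reads its level ran from 3.34 to 3.98 CPM, and in homozygous library 3 the 0 allows at most 0.0783 CPM on the unscaled total. Of the 15620 rows with 50 reads or more in each of the other 5 libraries, mmu-clu-202 was the only row at 0 in homozygous library 3, and no row had such a pattern in any other library. mmu-clu-203, the next row by number, was at 0 in the same library. The fitted log2 fold change of mmu-clu-202 was -0.60 ± 0.60 SE (edgeR adjusted p 0.705), and 0.01 without homozygous library 3. Without a fit, its 5 other libraries overlap between genotypes. Without a filter on low counts edgeR called 5 of 111 clusters, or 4.5%, with mmu-clu-202 among them as lower (adjusted p 0.00992). Of all 39840 features in that fit, 595, or 1.49%, were called, 272 of them higher (0.683%) and 323 lower.

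Clusters varied more among heterozygous than among homozygous libraries, as did features at large. The SD of log2 CPM over 3 libraries had a median of 0.0967 in homozygous and 0.163 in heterozygous testes across the tested clusters. Over all features these medians were 0.0910 in homozygous and 0.134 in heterozygous testes. The heterozygous SD was the larger in 76 of 107 clusters, or 71.0%, against 67.4% of all features.

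Heterozygous library 1 gave the lowest level of all 6 libraries in 53 of 107 clusters, or 49.5%, against 17.6% of all features tested. Heterozygous library 2 gave the highest level in 34 clusters, or 31.8%, against 17.7% of all features, and the lowest in only 2, mmu-clu-2 and mmu-clu-92. mmu-clu-2 is named after its values were seen. The median deviation of a cluster from its own 6-library mean was -0.11 in log2 in heterozygous library 1, 0.08 in heterozygous library 2 and -0.02 in heterozygous library 3. In the homozygous libraries it was 0.02, 0.02 and 0.03. Over all features these medians stayed within 0.01 of 0 in every library. The TMM scaling was set on these same features, so medians near 0 over them are no separate result. Clusters share these libraries and their scaling, so they are not independent witnesses.

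Not every cluster followed this order. In 7 clusters heterozygous library 1 held the highest level instead, namely mmu-clu-11, mmu-clu-52, mmu-clu-84, mmu-clu-89, mmu-clu-137, mmu-clu-179 and mmu-clu-203. All of these but mmu-clu-179 and mmu-clu-203 are named after their values were seen. The well-read row mmu-clu-179 had 167, 170 and 150 CPM in homozygous libraries, against 181, 161 and 150 CPM in heterozygous libraries. mmu-clu-42, by contrast, had 117, 114 and 126 CPM in homozygous libraries, against 95.1, 120 and 107 CPM in heterozygous libraries, with heterozygous library 1 lowest. Neither passed (log2 fold change -0.02 for mmu-clu-179 and 0.14 for mmu-clu-42, edgeR adjusted p 0.942 and 0.437). Without heterozygous library 1 these values were 0.06 and 0.06, and without heterozygous library 2 that of mmu-clu-42 was 0.24 (edgeR adjusted p 0.297).

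**Figure D4:**
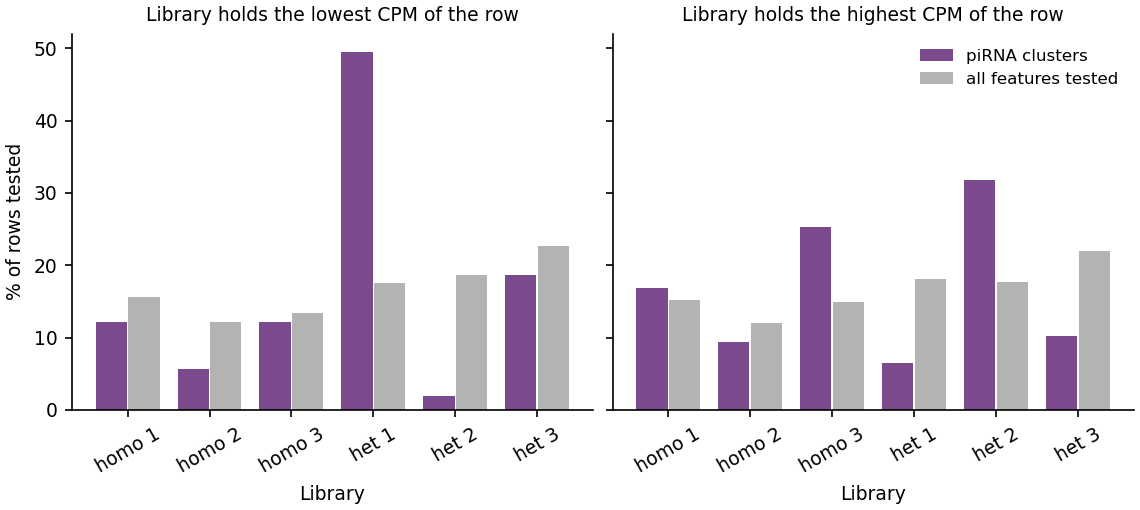
Percent of tested rows whose lowest (left panel) or highest (right panel) CPM lies in each library, for the 107 piRNA clusters and for all 22446 features tested. Heterozygous library 1 holds the lowest level of 49.5% of clusters, against 17.6% of all features. Heterozygous library 2 holds the highest level of 31.8% of clusters.

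Heterozygous library 1 also stood apart outside the clusters, in the macrophage markers. The 8 macrophage markers, all tested and none at 0, summed to between 60.3 and 79.0 CPM in homozygous libraries. In heterozygous libraries they summed to 143 CPM in library 1, 50.5 CPM in library 2 and 42.9 CPM in library 3. Cd74 alone gave 55.9 CPM of the sum in heterozygous library 1. All 8 markers were highest in that library, though by little for Cd68, at 2.94 CPM against 2.83 CPM in homozygous library 1. The 8 spermatocyte markers, all tested, summed to between 6678 and 6805 CPM in homozygous and between 6670 and 7055 CPM in heterozygous libraries. Heterozygous library 1 had the lowest sum, 6670 CPM, but hardly differed from homozygous library 1 at 6678 CPM. Ldhc alone gave 3564 CPM of the sum in heterozygous library 1. That library was the lowest for Sycp3 and Hormad1 and for none of the other spermatocyte markers. As a mean of log2(CPM + 1) over the 8 spermatocyte genes, the list stood at 8.57, 8.59 and 8.61 in homozygous libraries. In heterozygous libraries this mean was 8.52, 8.63 and 8.57, lowest in library 1 and highest in library 2. The part of either marker list in the cluster levels was not tested. Without heterozygous library 1 the calls over all features went to 1917 of 22910, or 8.37% (4.59% higher), and the calls among clusters to 7 of 107, or 6.54% (3 higher, 2.8%).

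The 7 clusters called in edgeR without heterozygous library 1 went in both directions. Higher in homozygous testis were mmu-clu-92, mmu-clu-81 (adjusted p 0.00606) and mmu-clu-138 (adjusted p 0.0311). Lower were mmu-clu-153, mmu-clu-103 (log2 fold change -0.46, adjusted p 0.0488), mmu-clu-112 (-0.23, adjusted p 0.041) and mmu-clu-78 (-0.22, adjusted p 0.0319). mmu-clu-103, mmu-clu-112 and mmu-clu-78 are named after their values were seen.

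Genes of the piRNA pathway were set beside the clusters by role. All 30 genes of the list were tested, and none passed an adjusted p of 0.05 in edgeR or in DESeq2 (which gave none to Piwil4), the smallest being 0.276 in edgeR. At an unadjusted p under 0.05 there were 6, or 20%, against 13.2% of all features. Their median log2 fold change was 0.03, with 19 values above 0 and 11 below.

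The transcription regulators of clusters come first. Mybl1, on chromosome 1 from 9667407 to 9700439 (GRCm38.p6), had 76.4, 79.3 and 77.9 CPM in homozygous libraries, against 74.3, 80.5 and 69.7 CPM in heterozygous libraries. The groups overlapped (log2 fold change 0.06 ± 0.06 SE, edgeR adjusted p 0.708). Tcfl5, a transcription factor of spermatocytes that acts with A-MYB in mouse, had a log2 fold change of 0.04 ± 0.04 SE (edgeR adjusted p 0.757). Btbd18, a nuclear protein needed in mouse for the transcription of a subset of pachytene clusters, had one of 0.19 ± 0.11 SE (edgeR adjusted p 0.458).

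Of the PIWI proteins, Piwil1 (MIWI), the partner of pachytene piRNAs, had 539, 527 and 522 CPM in homozygous libraries, against 501, 465 and 495 CPM in heterozygous libraries. Every homozygous level lay above every heterozygous one, with a log2 fold change of 0.12 ± 0.04 SE that did not pass (edgeR adjusted p 0.276). Piwil1 lies on chromosome 5 from 128736071 to 128755474 (GRCm38.p6). Piwil2 (MILI) had a log2 fold change of 0.02 ± 0.04 SE (edgeR adjusted p 0.885). Piwil4 (MIWI2), which acts in fetal germ cells, was sparse at 0.372 to 0.452 CPM in homozygous and 0.446 to 0.490 CPM in heterozygous libraries (log2 fold change -0.20 ± 0.26 SE, edgeR adjusted p 0.797).

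The 19 processing and granule factors had a median log2 fold change of 0.03, with values from -0.10 to 0.16. Pld6, the mitochondrial endonuclease of piRNA processing, had 58.3, 53.8 and 52.2 CPM in homozygous libraries, against 49.5, 46.1 and 51.2 CPM in heterozygous libraries (log2 fold change 0.16 ± 0.06 SE, edgeR adjusted p 0.285). Henmt1, which methylates the 3′ ends of piRNAs, had 30.9, 32.01 and 30.3 CPM in homozygous libraries, against 27.6, 27.8 and 29.2 CPM in heterozygous libraries (log2 fold change 0.14 ± 0.06 SE, edgeR adjusted p 0.336). In both genes all homozygous levels were above the heterozygous ones, by margins that missed the threshold. Of the 19 factors, 4 lay wholly above and 2 wholly below, Asz1 and Tdrd7, which are named after their values were seen. Over the 30 pathway genes these counts were 6 above and 2 below, where 8.99% of all features lay above and 10.3% below.

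Another 4 processing factors lay closer to 0. Mov10l1, the helicase that binds precursors, had a log2 fold change of 0.05 ± 0.05 SE (edgeR adjusted p 0.649), and the germ granule helicase Ddx4 one of -0.05 ± 0.05 SE (edgeR adjusted p 0.695). The scaffold Tdrd1 stood at 0.03 ± 0.04 SE (edgeR adjusted p 0.822) and Mael at 0.01 ± 0.04 SE (edgeR adjusted p 0.949). The 5 genes of piRNA-directed silencing had a median of -0.05, and values from -0.22 for Dnmt3l, a cofactor of DNA methylation, to 0.18 for Spocd1. Dnmt3l was the 1 pathway gene called without heterozygous library 1, or 3.33% of the list, against 8.37% of all features in that fit. Dnmt3l and Spocd1 are named after their values were seen.

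**Figure D5:**
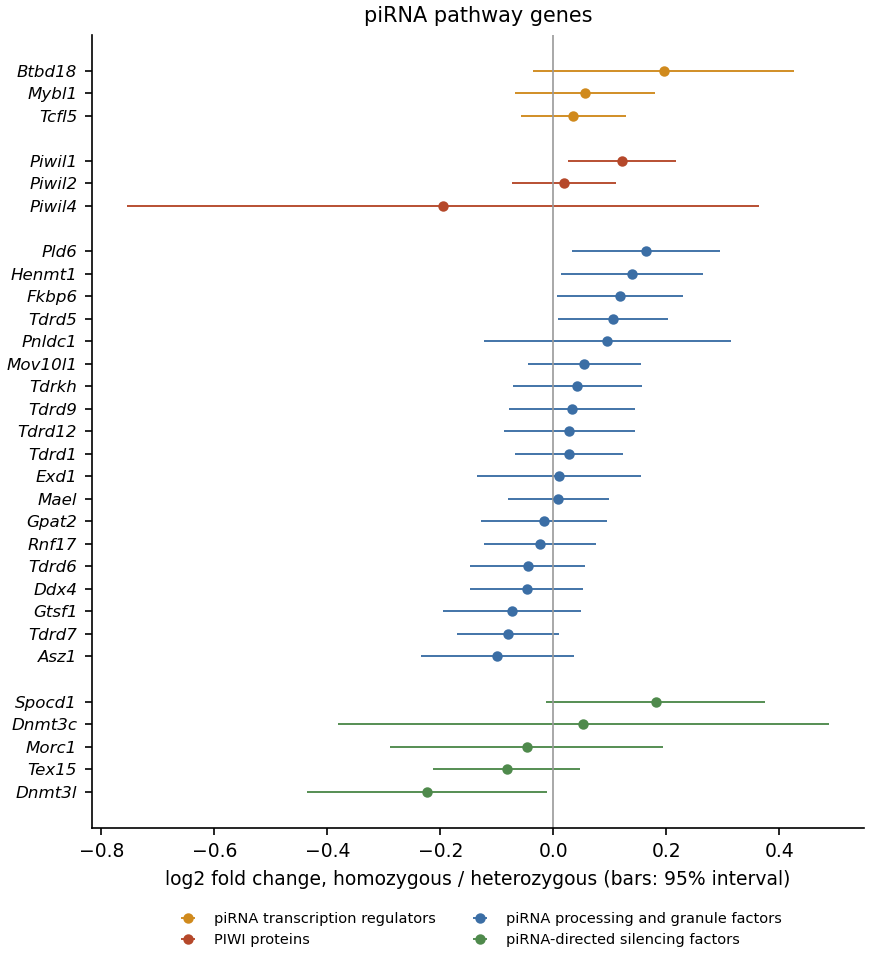
Fitted log2 fold change (homozygous over heterozygous) of 30 piRNA pathway genes, grouped by role, with 95% intervals. Values run from -0.22 to 0.19, and no gene passes an adjusted p of 0.05.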

How the data were processed

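Long RNA of adult testis was measured in 3 WLA homozygous and 3 heterozygous animals. The labels' protocols name Trizol and a TruSeq RNA kit with ribozero or poly(A) selection, and do not say which was used here. The submitters' processing notes name STAR, mm10 and DESeq2. No source used here gives the counting program, the strand setting or the annotation release. Without strand, reads of a cluster and of genes that overlap it cannot be told apart. The authors deposited raw read counts per feature, with a mean normalised signal, a log2 fold change, its standard error, a Wald score and p-values of DESeq2 per the file headers.

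Counts were filtered with filterByExpr, scaled by TMM and tested in edgeR 4.0.16 (quasi-likelihood test, no covariate, R 4.3.3) over 22446 features, adjusted by Benjamini-Hochberg and called at 0.05. The biological coefficient of variation was 6.77%. SEs and 95% intervals were worked out from the F statistic. DESeq2 1.42.0, other scalings and filters, a looser threshold and leaving out each library were the alternatives. Libraries of a genotype differed beyond sampling noise (the smallest ratio of chi-square to its degrees of freedom was 1.87). The labels number the animals, and replicates were taken as separate animals. Medians by library use log2(CPM + 0.1). Positions come from the RefSeq annotation of GRCm38.p6. Python 3.11.15 (pandas 2.3.3, matplotlib 3.10.9) was used for summaries and figures.

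Clusters were named if called, among the 10 with most reads, or among the 5 highest or 5 lowest fitted log2 fold changes. Ythdc2 and 12 pathway genes were also named. Other clusters and pathway genes are marked where they were chosen after their values were seen. Marker genes named singly were chosen in that way too. The members, the 30 pathway genes and 11 lists of cell markers were chosen with earlier results of these data known. No cluster coordinates or sequences were at hand, so none are printed.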

Additional observations from a re-analysis of the deposited data

How the results depend on the processing

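The median log2 fold change of the clusters (0.04 to 0.06) and the ratio of their read share (1.05, also with TMM scaling, which was chosen after seeing the data) kept their direction under every other scaling, filter and tool run. With 1 library left out the median ran from -0.02 to 0.10 and the ratio from 1.03 to 1.08. Counts of calls were less stable. All features called numbered 53 (21 higher, 32 lower), against 218 with DESeq2, 595 without a filter on low counts and 159 at a threshold of 0.1. With 1 library left out they ran from 3 (without homozygous library 1) to 1917 (without heterozygous library 1). Called clusters numbered 1, against 3 with DESeq2, 5 without the filter and 2 at 0.1, and from 0 to 7 with 1 library left out. The 5 clusters without the filter (1.49% of features called) were mmu-clu-153, mmu-clu-81, mmu-clu-138, mmu-clu-92 and mmu-clu-202. Called pathway genes ran from 0 to 1. The cause of these shifts was not tested, other than that fewer libraries enter with 1 left out. Of 384 single values for 33 named clusters and genes, 370 kept their side of the threshold, 5 lost a call (mmu-clu-153, with any library but heterozygous 1 left out) and 9 gained one (mmu-clu-81, mmu-clu-92, mmu-clu-138 and mmu-clu-202). Another 6 had no adjusted p in DESeq2 and are not counted. The sign of 6 uncalled values turned with 1 library left out (mmu-clu-10, mmu-clu-61, mmu-clu-179, mmu-clu-202, Ythdc2 and Mael). Leaving out clusters that overlap genes was not run, since no cluster coordinates were at hand. No paired analysis was possible because the animal numbers are not shared between the genotypes and the columns carry none.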

Other observations

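Marker lists of the cells of adult testis, set beside the clusters, held no gene past an adjusted p of 0.05 in edgeR. The median log2 fold change was -0.01 for spermatocytes, -0.10 for round spermatids, -0.02 for elongating spermatids and 0.11 for spermatogonia. For cells outside the germ line it was 0.12 for Sertoli cells, 0.27 for Leydig cells, 0.17 for peritubular myoid cells, -0.08 for macrophages, 0.02 for endothelial cells and 0.02 for red blood cells. The Leydig genes summed to 613, 544 and 535 CPM in homozygous libraries, against 563, 527 and 341 CPM in heterozygous libraries, so that heterozygous library 3 stood apart. Of 4 epididymal genes 1 was tested (0.08) and 1 was at 0 in all libraries. All 9 Sertoli genes, all 6 peritubular genes, 8 of 9 spermatogonia genes and 7 of 8 Leydig genes had values above 0. Over all features 51.5% had one above 0. Values below 0 were held by 8 of 9 round spermatid, 7 of 10 elongating spermatid and 6 of 8 macrophage genes. Above 0 were 4 of 8 spermatocyte, 4 of 6 endothelial and 3 of 5 red blood cell genes.

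Rows of type lincRNA (long intergenic noncoding RNA) showed another order of libraries than the clusters did. Over 1999 tested lincRNA rows the median log2 fold change was -0.14, and 10 were called, or 0.50%, against 0.236% of all features. Their median deviation from the 6-library mean was -0.09, -0.06 and -0.03 in homozygous libraries 1 to 3, and -0.05, 0.10 and 0.16 in heterozygous libraries 1 to 3. Heterozygous library 3 was thus the highest for lincRNA rows and below the mean for clusters (-0.02).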
